A study of Mus musculus with 6 samples.

Results

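Hypothyroid and control tibialis anterior muscle (TAM) were compared 5 days after injury (5 dpi) by scRNA-seq, gene by gene, within 3 cell populations and over all cells together. The comparison used 2 of the 6 libraries of the study and 4583 of the 11207 cells kept, of which 2428 came from the control library and 2155 from the hypothyroid library. The populations were set by marker genes. Cells with at least 1 unique molecular identifier (UMI, a counted RNA molecule) of both *Pdgfra* and *Dcn* were taken as the gate for fibro-adipogenic progenitors (FAPs), cells with a UMI of *Lyz2* as the gate for monocytes and macrophages, and cells with UMIs of at least 2 of *Cd3d*, *Cd3e*, and *Cd3g* as the gate for T cells. The genes that define a gate are not reported as results.

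All mice were male, 3 to 5 months old, and on a mixed B6 and 129 background. Both diet groups carried the cell cycle reporter allele Gt(ROSA)26Sor<tm1(Fucci2aR)Jkn, and the mice sequenced were negative for Cre. Hypothyroid mice ate a low-iodine diet with 0.15% propylthiouracil (PTU), which blocks thyroid hormone synthesis, from 3 weeks before injury onward. Control mice ate a matched diet. Injury was an injection of cardiotoxin (CTX, 50 μg/ml) into the right TAM. Cells of 3 mice were pooled into each library, and red blood cells and dead cells were removed before capture. Each diet and day therefore has 1 library and no replicate, no difference below was tested, and diet cannot be told apart from a difference between libraries. The 95% intervals given (exact Poisson for levels, exact conditional binomial for ratios, Clopper-Pearson for shares) cover counting error only. Levels are UMIs of a gene per 1000000 UMIs of the population (CPM), and every ratio is the hypothyroid level over the control level, so that values above 1 are higher in hypothyroid cells.

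Thyroid hormone acts through nuclear receptors encoded by *Thra* and *Thrb*, and its local supply is set by deiodinases, of which DIO2 activates the hormone and DIO3 inactivates it. In injured muscle, FAPs expand for a short time, lay down matrix, and release chemokines. Monocytes enter early and mature into macrophages that clear debris and then take on repair functions, and T cells, regulatory T cells among them, arrive with them.

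The 2 libraries differed in depth and in a set of genes that cells of every kind shared. The control library held 15435263 UMIs, with a median of 3847 UMIs per cell, and the hypothyroid library held 23496821 UMIs, with a median of 8055. Over the 6 libraries the total ranged from 2283796 to 23496821 UMIs. Mitochondrially encoded RNA made up 4.32% of UMIs in control cells and 2.26% in hypothyroid cells. No barcode was shared between the 2 libraries at 5 dpi.

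Some genes stood apart in all cells of a library at a level that did not follow diet over the 3 days. *Gstp1* (chr19:4085407-4087986 in mm39), which encodes a glutathione transferase, was at 4.79 CPM in control against 214 CPM in hypothyroid cells at 5 dpi. In the other libraries *Gstp1* was at 155 and 201 CPM (control and hypothyroid, uninjured) and at 20.2 and 18.2 CPM (14 dpi). The long noncoding gene *Gm10076* (chr14:105919259-105919666) was at 179 and 3043 CPM at 5 dpi, against 891 and 676 CPM in uninjured muscle and 328 and 469 CPM at 14 dpi. *Wdr89* (chr12:75677370-75716312) ran the other way, with 158 CPM in control against 12.7 CPM in hypothyroid cells at 5 dpi, 5.23 and 4.38 CPM in uninjured muscle, and 53.0 and 72.9 CPM at 14 dpi. For these genes the diets were within 2-fold of each other in uninjured muscle and at 14 dpi and over 10-fold apart at 5 dpi. Reads of *Gstp1* and *Gm10076* may be shared with near-identical copies, and how they were assigned was not tested. *Gstp2*, the close copy of *Gstp1*, differed in the same direction over all cells at 5 dpi, with a ratio of 29.7.

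**Figure D1:**
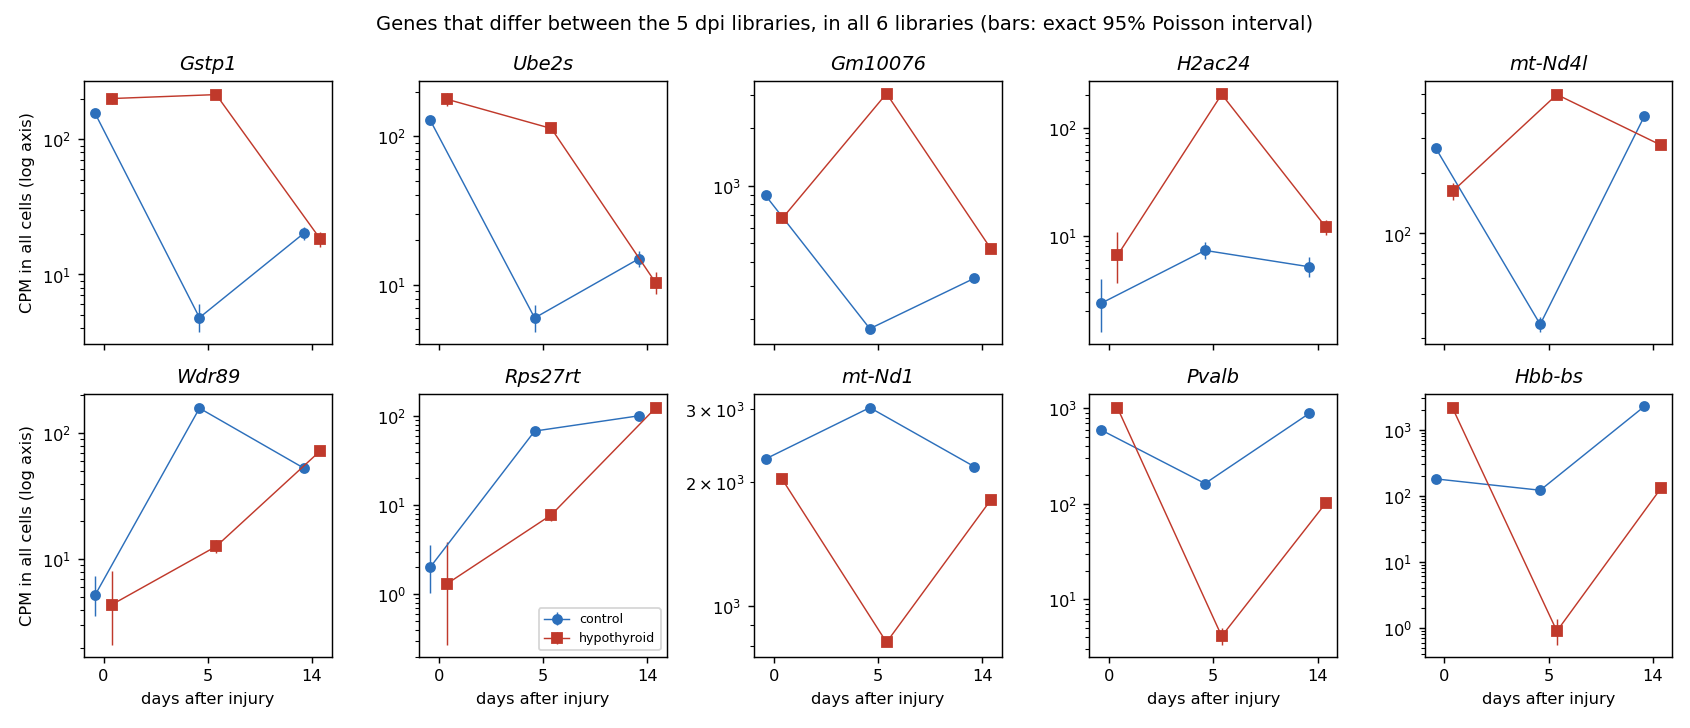
Level in CPM (log axis) of genes that separated the 2 libraries of 5 dpi, in all cells of each of the 6 libraries, by day after injury. Each point is 1 library, and lines join separate libraries of the same diet; *Gstp1* was at 4.79 and 214 CPM at 5 dpi and at 20.2 and 18.2 CPM at 14 dpi.

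Gated FAPs and *Lyz2*-positive cells made up larger shares of the hypothyroid library, and cells with Cd3 genes a smaller one. The FAP gate held 303 of the control cells (12.5%, 95% interval 11.2 to 13.9) and 608 of the hypothyroid cells (28.2%, 26.3 to 30.2). The *Lyz2* gate held 361 control cells (14.9%, 13.5 to 16.3) and 899 hypothyroid cells (41.7%, 39.6 to 43.8). The T cell gate held 240 control cells (9.88%, 8.73 to 11.1) and 82 hypothyroid cells (3.81%, 3.04 to 4.70). None of the pairs of intervals overlapped. Since a deeper cell passes a gate more easily, every cell was also thinned at random to 1500 UMIs, which left out 336 control and 210 hypothyroid cells that were shallower. The shares were then 4.54% and 8.48% for FAPs, 11.1% and 31.5% for *Lyz2*, and 5.78% and 2.78% for T cells. When the later columns of each deposited file were kept as well, the FAP share was 22.6% in control and 23.6% in hypothyroid cells. The T cell share was then 5.66% and 5.64%, so those shares hardly differed. The condition of the later columns is unknown, and they had the library-wide gene levels of other libraries. In the hypothyroid file 1626 of them had *Gstp1* at 4.76 CPM, beside 4.79 CPM in control cells. Each side may then mix conditions, which holds for every value given with all columns.

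**Figure D2:**
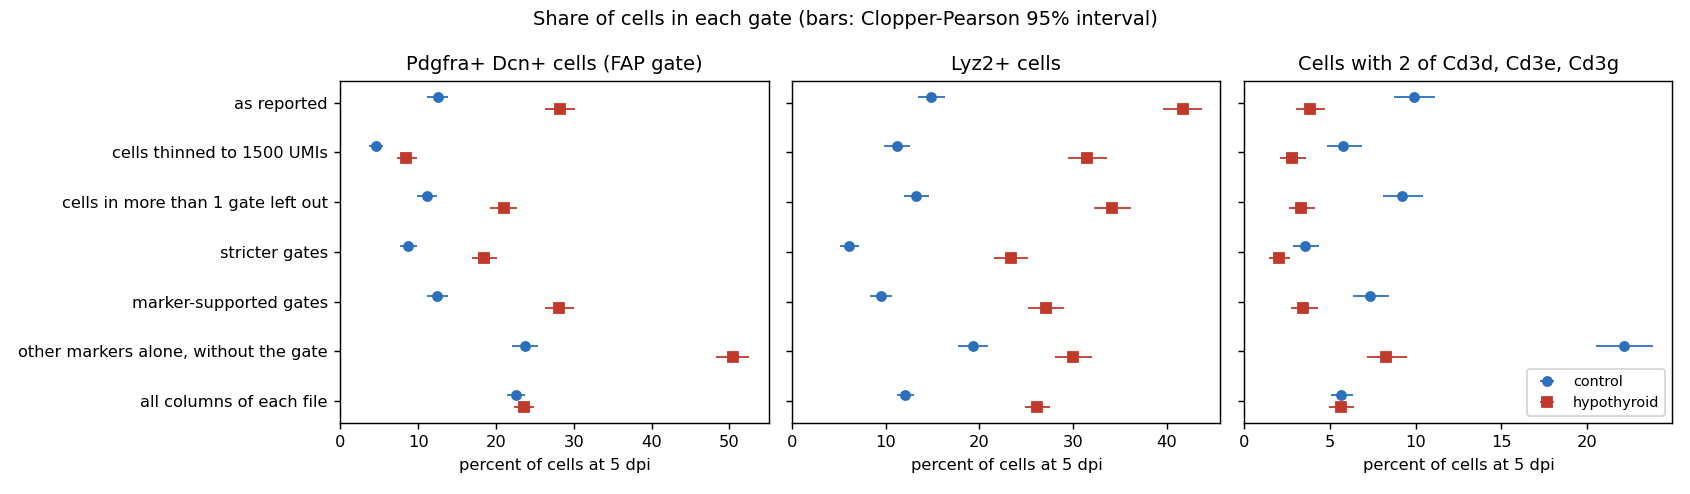
Share of cells (percent) in each of the 3 gates at 5 dpi under each way of counting, for the control and hypothyroid libraries, with 95% Clopper-Pearson intervals (counting error only). In the top row the FAP gate held 12.5% and 28.2%, the *Lyz2* gate 14.9% and 41.7%, and the T cell gate 9.88% and 3.81% of cells.

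The gates were checked against markers that they did not use. In the FAP gate 99.7% of cells in each library had UMIs of at least 3 of 6 other FAP markers. In the *Lyz2* gate 63.4% of control and 65.0% of hypothyroid cells had at least 3 of 7 other monocyte and macrophage markers, and in the T cell gate 74.2% and 90.2% had at least 2 of 5 other T cell markers. Many control cells with such support lay outside the *Lyz2* gate, 239 of 468, against 63 of 647 hypothyroid cells. Counted by these 7 markers alone, control cells had a share of 19.3% and hypothyroid cells one of 30.02%, which gives 1.56 as the ratio of the shares where the gate gave 2.81. Outside the FAP gate lay 273 of 575 control and 481 of 1087 hypothyroid cells with FAP marker support. For the T cell gate these were 360 of 538 and 104 of 178. Cells with at least 3 natural killer cell markers numbered 164 in the control and 31 in the hypothyroid library. Of these, 9 and 3 lay in the *Lyz2* gate, and 3 and 1 in the T cell gate. The part of natural killer cells in the counts by other markers was not tested. Gated FAPs were deep cells, with medians of 15355 and 15960.5 UMIs. *Lyz2*-positive cells also carried FAP transcripts. At least 3 FAP markers were found in 17.2% of control and 34.8% of hypothyroid cells of the *Lyz2* gate, and cells that passed both the FAP and the *Lyz2* gate made up 9.90% of the control and 25.3% of the hypothyroid FAP gate. Transcripts of other cell types differed between the libraries in every gate. Muscle fibre markers together were at 500 CPM in control against 168 CPM in hypothyroid FAPs, at 925 and 174 CPM in *Lyz2*-positive cells, and at 1568 and 163 CPM in T cells. Hemoglobin and other erythroid markers together were at 148 and 1.15 CPM in FAPs. The part of such RNA in the results below was not tested.

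With UMIs summed over all cells of a population, more genes were lower than higher in hypothyroid cells. A gene entered the comparison with at least 100 UMIs and 20 cells with a UMI in the library where its level was higher. Of 6629 genes in FAPs, 185 (2.79%) were at least 2-fold higher and 435 (6.56%) at least 2-fold lower. Of 5547 genes in *Lyz2*-positive cells, 323 (5.82%) were higher and 507 (9.14%) lower. In T cells, the shallowest population, 1613 genes entered, of which 51 (3.16%) were higher and 249 (15.4%) lower. Over all cells 352 of 10470 genes (3.36%) were higher and 1943 (18.6%) lower. Since the minimum was in UMIs, a gene higher in the smaller pool needed a higher CPM to enter. In T cells the hypothyroid pool was the smaller, and in FAPs and *Lyz2*-positive cells the control pool. With 100 UMIs in both libraries together, 112 genes were higher and 292 lower in T cells. The counts were then 209 and 664 in FAPs, and 340 and 878 in *Lyz2*-positive cells.

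This split moved with the scaling and with the cells counted. In *Lyz2*-positive cells the order turned, with 607 genes higher and 479 lower as means over cells, 289 and 137 with at least 10 UMIs of *Lyz2* required, and 199 and 187 among genes with at least 300 UMIs. In T cells it turned when all columns of each file were kept, with 33 higher and 13 lower. The median gene with at least 100 UMIs in both libraries had a ratio of 0.817 in FAPs (log2 -0.29), 0.810 in *Lyz2*-positive cells (log2 -0.30), 1.13 in T cells (log2 0.18), and 0.751 over all cells (log2 -0.41). Relative to that median gene, 371 genes were higher and 153 lower in FAPs, 628 and 258 in *Lyz2*-positive cells, 33 and 398 in T cells, and 921 and 814 over all cells. Gene groups are therefore set beside the median ratio of all genes with at least 100 UMIs in both libraries together, which was 0.813 in FAPs, 0.846 in *Lyz2*-positive cells, and 0.802 in T cells. The median ratio of a group is likewise over its members with at least 100 UMIs in both libraries together. A summed level is over all its members in the files. Both can include members that did not enter. In T cells the median gene (1.13) and the median ratio of all genes (0.802) lay on opposite sides of 1. The median gene there rested on 555 genes with at least 100 UMIs in each library, and the hypothyroid pool was the smaller. Values relative to the median gene in T cells depend on this choice of genes.

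**Figure D3:**
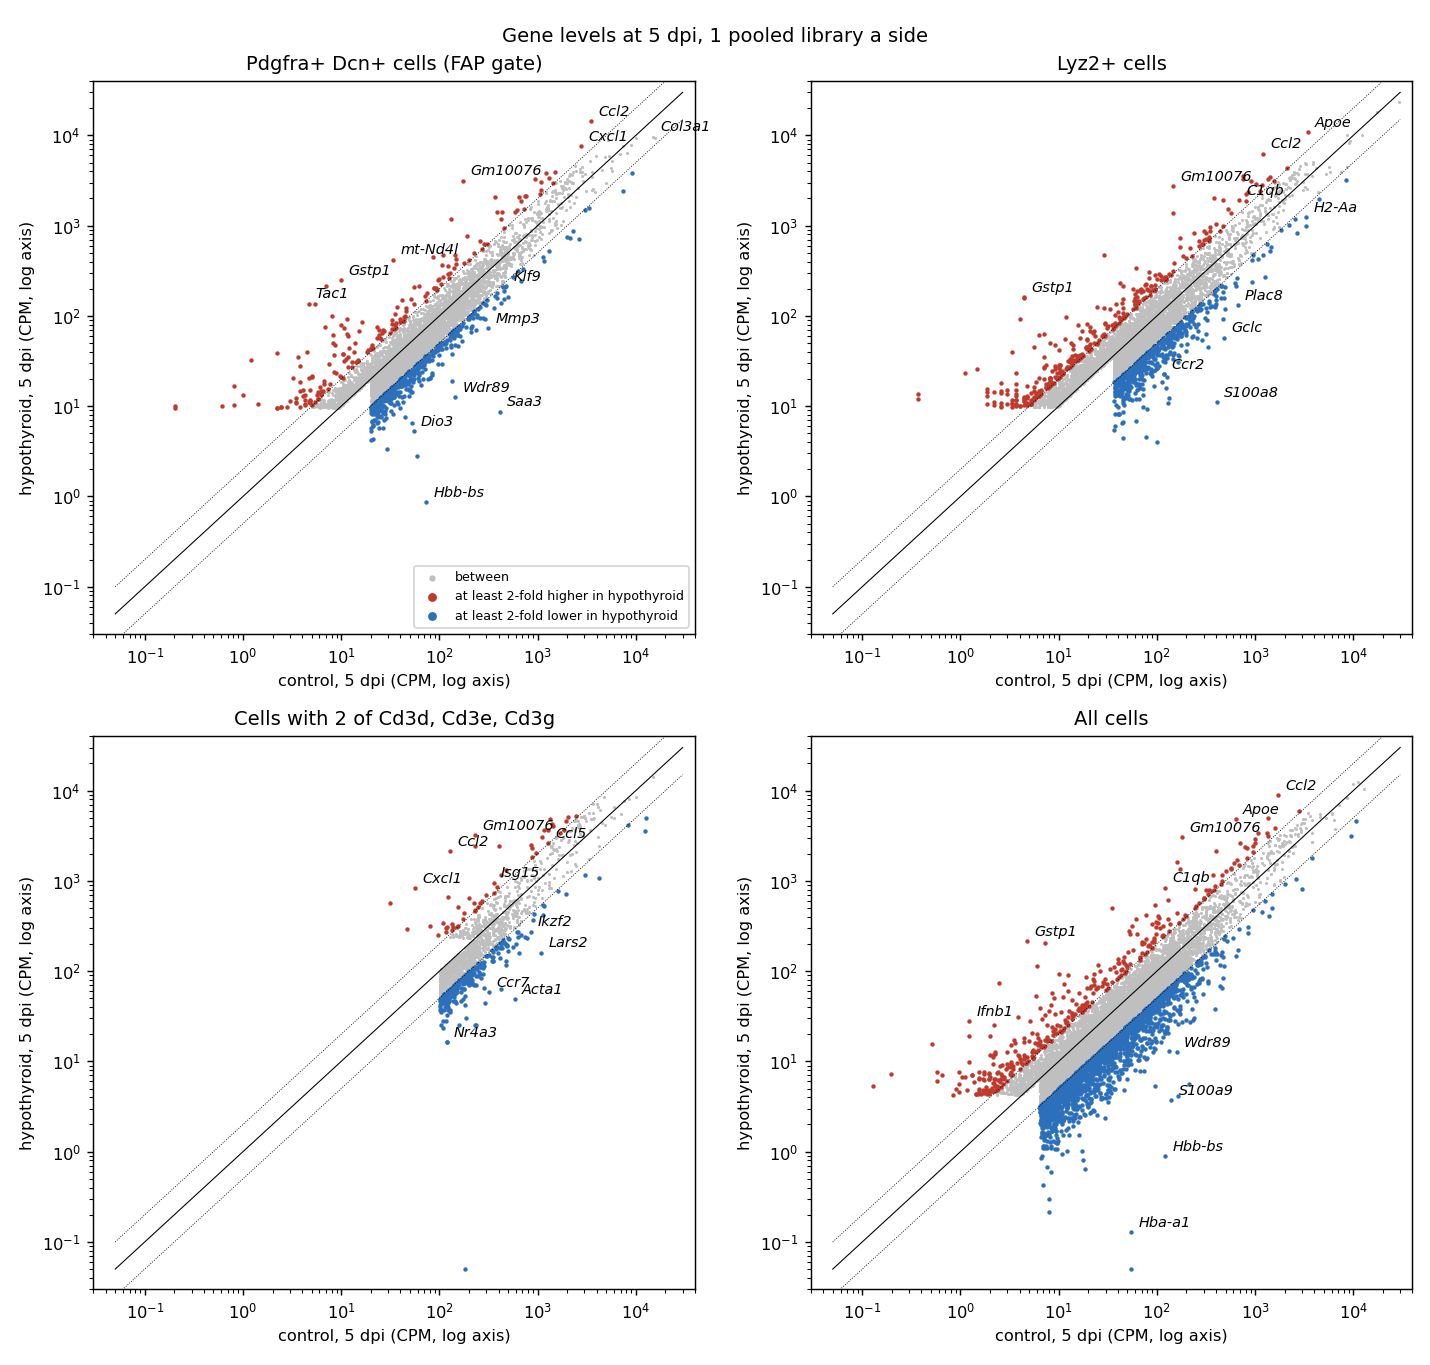
Level of every gene that entered, in control (horizontal) and hypothyroid (vertical) cells at 5 dpi, in CPM on log axes, for the 3 gates and for all cells; the solid line marks equal levels, the dotted lines mark 2-fold, and values of 0 are drawn at 0.05. *Ccl2* lies above the upper line in all panels, at 3483 and 14322 CPM in FAPs, and *Wdr89* lies below the lower line.

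Hypothyroid FAPs carried more mRNA of several chemokines that draw monocytes and neutrophils. Of 21 chemokine and cytokine genes of stromal cells, 20 entered, of which 5 were at least 2-fold higher, 2 lower, and 13 between, beside 2.79% higher over all genes. Their summed level was 18548 CPM in control against 37813 CPM in hypothyroid FAPs, a ratio of 2.04 (2.02 to 2.05), while their median ratio was 1.07 against 0.813 over all genes. *Ccl2* (chr11:81926397-81928280), the main ligand of the monocyte receptor CCR2, was at 3483 CPM (3432 to 3536) in control against 14322 CPM (14249 to 14394) in hypothyroid FAPs, a ratio of 4.11 (4.05 to 4.18). *Ccl2* alone thus made up most of the difference in the sum. With all columns of each file kept, its ratio was 1.95, under 2-fold. Its level was spread over the population, with 27.7% of its UMIs in the 10 highest control cells and 12.6% in the 10 highest hypothyroid cells. On the other days the *Ccl2* ratio was 0.626 in uninjured muscle (8690 and 5441 CPM) and 2.0 at 14 dpi (8145 and 16318 CPM).

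Its neighbour *Ccl7* (chr11:81936538-81938352), another ligand of CCR2, was at 1508 and 3975 CPM, a ratio of 2.64 (2.57 to 2.70). The neutrophil attractants *Cxcl1* (chr5:91039100-91040975) and *Cxcl2* were at 2794 and 7567 CPM and at 1312 and 3394 CPM, with ratios of 2.71 (2.66 to 2.76) and 2.59 (2.52 to 2.66). With all columns *Ccl7*, *Cxcl1*, and *Cxcl2* were under 2-fold too, with ratios of 1.35, 1.34, and 1.58. *Cxcl10*, an interferon-inducible attractant of T cells, was at 257 and 670 CPM, a ratio of 2.61 (2.45 to 2.77), and 3.27 with all columns. *Tnfaip6*, a hyaluronan-binding protein of inflamed stroma, lay just under 2-fold, at 1002 and 1852 CPM. Not every inflammatory gene of the group was higher. *Cxcl14* was at 2134 CPM in control against 733 CPM in hypothyroid FAPs, a ratio of 0.343 (0.333 to 0.354). *Il6*, the gene of a pleiotropic cytokine, was at 383 and 353 CPM.

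The acute-phase gene *Saa3* (chr7:46361422-46365125) had the second lowest ratio among genes that entered in FAPs, with 412 CPM in control against 8.65 CPM in hypothyroid cells, giving a ratio of 0.021 (0.0168 to 0.0259). *Saa3* was found in 36 control and 4 hypothyroid FAPs, and the 10 highest control cells held 84.2% of its control UMIs, so this difference rested on few cells.

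Matrix genes summed to a lower level in hypothyroid FAPs on the CPM scale but lay close to the median gene. All 29 fibrillar collagen and matrix protein genes listed entered. None was at least 2-fold higher, 1 was lower (*Eln*), and their median ratio was 0.854, slightly above the 0.813 over all genes, so their direction relative to the median gene was the opposite of that on the CPM scale. Summed, they took 76979 CPM in control against 58911 CPM in hypothyroid FAPs, a ratio of 0.765 (0.762 to 0.768). The fibril-forming collagens *Col1a1* and *Col3a1* carried much of that sum, at 15539 and 9329 CPM and at 15071 and 9662 CPM, with ratios of 0.60 (0.595 to 0.606) and 0.641 (0.635 to 0.647). *Eln*, which encodes elastin, was at 247 and 119 CPM, a ratio of 0.483 (0.446 to 0.523). *Thbs1*, a matricellular protein that can activate latent TGF-β, was on the other side at 850 and 1598 CPM, a ratio of 1.88. Of 11 basement membrane genes 10 entered and none was past 2-fold. *Nid1*, which links laminin to collagen IV, had a ratio of 0.855, and *Hspg2* (perlecan) one of 0.526.

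The enzymes that fold, hydroxylate, and crosslink collagen had a median ratio below that of all genes. All 18 entered, none was 2-fold higher, 3 were lower, and 15 lay between, beside 6.56% lower over all genes. Their median ratio was 0.669 against 0.813. *Serpinh1*, the collagen chaperone HSP47, was at 3022 CPM in control against 1495 CPM in hypothyroid FAPs, a ratio of 0.495 (0.484 to 0.506). *Loxl1*, a lysyl oxidase that crosslinks elastin, was at 564 and 267 CPM, a ratio of 0.474 (0.450 to 0.50). *P4ha3*, a subunit of collagen prolyl hydroxylase, had a ratio of 0.451. Relative to the median gene none of the 18 was past 2-fold.

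Matrix proteases did not move as a group. Of 19 listed, 18 entered, with 2 higher, 3 lower, and 13 between, beside 2.79% higher and 6.56% lower over all genes. Their median ratio was 0.829. *Plau*, the urokinase plasminogen activator, was at 106 and 363 CPM, a ratio of 3.44 (3.14 to 3.78). *Mmp10*, a stromelysin, was at 10.7 and 32.0 CPM, but in 8 control and 36 hypothyroid cells. Its close relative *Mmp3* (chr9:7445822-7455976) was at 315 CPM in control against 72.8 CPM in hypothyroid FAPs, a ratio of 0.231 (0.212 to 0.252), and at 14 dpi at 201 and 659 CPM, a ratio of 3.28. The aggrecanase *Adamts5* was at 465 and 212 CPM, a ratio of 0.455 (0.429 to 0.482). *Mmp19* was the third lower member, with a ratio of 0.440.

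Resident and progenitor FAP genes held 4 lower members of 17, and no higher ones, beside 6.56% lower over all genes. Relative to the median gene 1 was lower and 1 higher. *Cd248* (endosialin) was at 234 and 69.0 CPM, a ratio of 0.294 (0.268 to 0.323), and *Gas1*, a growth arrest gene, at 239 and 101 CPM, a ratio of 0.424 (0.390 to 0.461). *Pi16* and *Dpp4*, which mark adventitial progenitors, had ratios of 0.463 and 0.462. The other 13 genes lay between, and the median of the group, 0.816, was that of all genes within 0.01. *Cd248* was lower at 14 dpi too (160 and 53.2 CPM), while *Gas1* was at 209 and 227 CPM in uninjured muscle. Contractile fibroblast genes showed little difference, with 8 of 10 listed entering and none past 2-fold. *Acta2* (smooth muscle actin) had a ratio of 0.859 and *Tpm1* one of 1.18, on either side of 1.

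**Figure D4:**
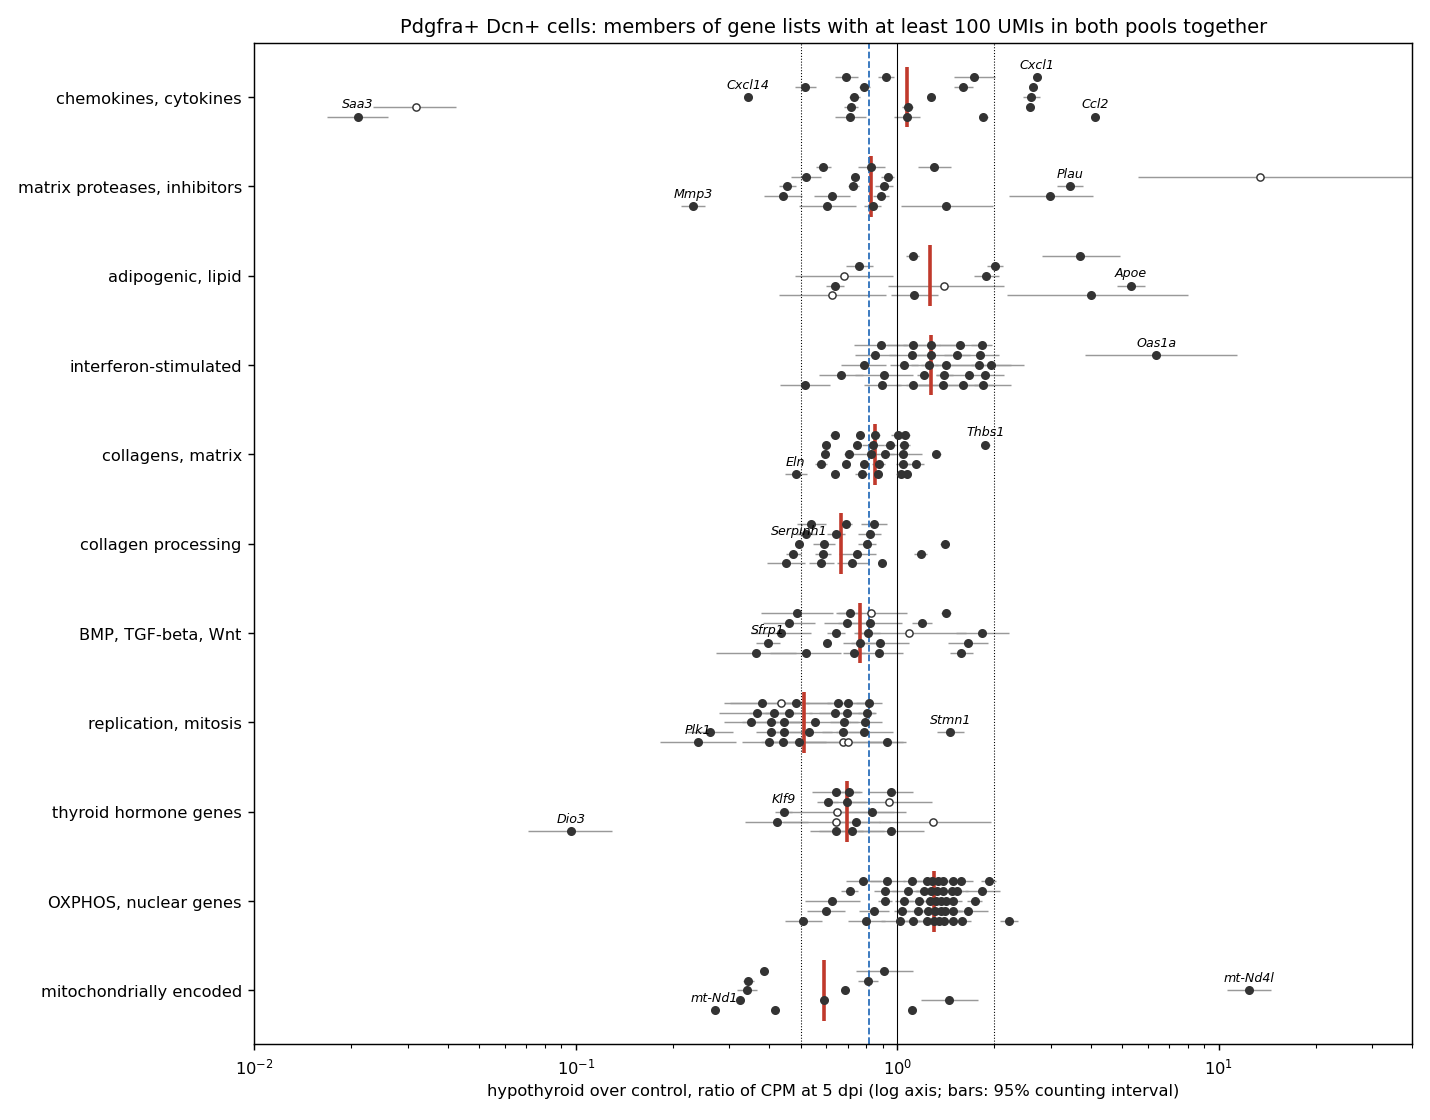
Ratio of hypothyroid over control level (log axis) at 5 dpi for each member with at least 100 UMIs in both libraries together of the gene groups in the FAP gate. Filled points entered the comparison, open points were under the minimum, the red bar is the median of the group, the blue dashed line is the median over all genes (0.813), and dotted lines mark 2-fold; the stromal chemokines reach from *Saa3* at 0.021 to *Ccl2* at 4.11.

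Of 28 BMP, TGF-β, and Wnt genes listed, 21 entered, none was 2-fold higher, 5 were lower, and 16 lay between, beside 6.56% lower over all genes, with a median ratio of 0.762. Relative to the median gene 2 were higher and 2 lower. *Sfrp1*, a Wnt antagonist, was at 244 and 96.6 CPM, a ratio of 0.396 (0.364 to 0.431). *Sfrp4* had a ratio of 0.461, *Wnt5a* one of 0.487, and *Ccn5* one of 0.434. Of 10 IGF genes 8 entered, and *Igfbp7*, which binds insulin-like growth factors, was the only member past 2-fold, at 735 and 1537 CPM, a ratio of 2.09 (2.02 to 2.17). *Igf1* itself was at 303 and 288 CPM, a ratio of 0.95.

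Some lipid genes were higher. Of 15 adipogenic and lipid genes listed, 9 entered, with 4 at least 2-fold higher, none lower, and 5 between, beside 2.79% higher over all genes, and the median ratio was 1.25. *Apoe* (chr7:19430034-19433114), which carries lipid in lipoproteins, was at 85.6 and 454 CPM, a ratio of 5.31 (4.81 to 5.88), and the 10 highest cells held 80.9% of its control and 50.3% of its hypothyroid UMIs. The fatty acid-binding protein *Fabp4* was at 11.9 and 44.0 CPM, with 90.0% of its hypothyroid UMIs in 10 cells. *Cd36*, a fatty acid receptor, had a ratio of 4.0, and *Apod* one of 2.01. *Trem2*, a lipid receptor of macrophages, was also among the 8 highest ratios in gated FAPs, with 6 UMIs in 4 control cells and 337 UMIs in 44 hypothyroid cells. Monocyte and macrophage markers together stood at 113 CPM in control against 343 CPM in hypothyroid FAPs, and the part of such RNA in *Apoe*, *Fabp4*, and *Trem2* was not tested. The adipogenic regulator *Pparg* was at 1.21 and 4.32 CPM, under the minimum.

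Of 32 interferon-stimulated genes listed, 29 entered, 1 was at least 2-fold higher, none was lower, and 28 lay between, a share near the 2.79% higher over all genes. Their median ratio was 1.27 against 0.813. *Oas1a*, an activator of antiviral RNase L, was at 3.24 CPM (16 UMIs) and 20.7 CPM (215 UMIs), a ratio of 6.38 (3.84 to 11.4). *Ifitm3* and *Isg15*, more abundant members, were at 1229 and 2303 CPM and at 228 and 421 CPM.

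A few genes of the thyroid hormone axis were lower in hypothyroid FAPs. Of 25 receptors, deiodinases, transporters, and known targets listed, 13 entered and 9 were under the minimum. Of those that entered, 3 were at least 2-fold lower (*Dio3*, *Dio2*, and *Klf9*), 10 lay between, and none was higher, beside 6.56% lower over all genes, with a median ratio of 0.699. Relative to the median gene 1 member, *Dio3*, was past 2-fold. *Klf9* (chr19:23118590-23145499), a transcription factor gene that thyroid hormone induces in many cells, was at 479 CPM (460 to 499) in control against 212 CPM (203 to 221) in hypothyroid FAPs, a ratio of 0.442 (0.417 to 0.469). Glucocorticoids induce *Klf9* as well. Its ratio was 1.13 in uninjured muscle (1262 and 1423 CPM) and 0.814 at 14 dpi (823 and 670 CPM). Relative to the median gene the ratio of *Klf9* at 5 dpi was 0.542.

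*Dio3* (chr12:110245502-110247532), the deiodinase that inactivates thyroid hormone and is itself a target of it, was at 54.6 CPM (48.3 to 61.5) in control against 5.29 CPM (3.98 to 6.88) in hypothyroid FAPs, a ratio of 0.0968 (0.0711 to 0.130). It was found in 38 control and 25 hypothyroid cells, and 10 cells held 73.7% and 69.1% of its UMIs. *Dio3* was low on the other days, between 1.31 and 2.41 CPM in FAPs. The activating deiodinase *Dio2* was at 34.2 and 14.4 CPM, a ratio of 0.422 (0.336 to 0.529). The receptor gene *Thra* differed by less than its counting error, at 50.2 and 47.9 CPM, a ratio of 0.954 (0.818 to 1.12). *Thrb* was too sparse to compare, with 16 and 27 UMIs. The corepressor gene *Ncor1* had a ratio of 0.706, not past 2-fold.

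Many genes of DNA replication and mitosis were lower in hypothyroid FAPs. Of 32 listed, 29 entered, and 15 of them were at least 2-fold lower, 14 between, and none higher, against 6.56% lower over all genes. Their median ratio was 0.512 and their summed level was 2304 CPM in control against 1450 CPM in hypothyroid FAPs, a ratio of 0.629 (0.614 to 0.645). The largest ratios away from 1 were those of mitotic genes. *Plk1*, a mitotic kinase, was at 34 and 8.17 CPM, a ratio of 0.240 (0.183 to 0.314), and *Cdc20*, which activates the anaphase-promoting complex, was at 84.8 and 22.1 CPM, a ratio of 0.261 (0.221 to 0.307). *Top2a* and *Mki67*, both widely used as proliferation markers, had ratios of 0.405 (0.364 to 0.451) and 0.444 (0.388 to 0.509). *Stmn1*, a microtubule regulator, was the exception at 117 and 171 CPM. Past 2-fold relative to the median gene were 8 of the group.

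The same genes were counted cell by cell. After thinning to 1500 UMIs, 32.9% of control FAPs (27.6 to 38.5) and 20.5% of hypothyroid FAPs (17.3 to 24) had UMIs of at least 3 of these genes, and without thinning the shares were 70.6% and 64.6%. Among cyclin D and CDK inhibitor genes, *Cdkn1c* (p57, an inhibitor of G1 kinases) was at 51.0 and 154 CPM, a ratio of 3.01 (2.64 to 3.45), and *Ccnd2* at 152 and 73.2 CPM, a ratio of 0.481 (0.434 to 0.532). *Cdkn1a* (p21) had a ratio of 0.992. Of the 8 genes of this group that entered, 6 lay between. When all columns of each file were kept, *Top2a*, *Plk1*, and *Cdc20* had ratios of 0.990, 0.901, and 0.849. *Mki67* then had a ratio of 1.09, *Stmn1* one of 2.46, *Cdkn1c* one of 0.992, and *Ccnd2* one of 0.581.

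The remaining groups of FAP genes held up to 4 members past 2-fold each, beside 2.79% higher and 6.56% lower over all genes. Of 22 immediate early genes 4 were lower, among them *Btg2*, an antiproliferative gene (420 and 139 CPM), and *Socs3*, a brake on cytokine signaling (457 and 187 CPM). Of 20 heat shock and unfolded protein genes 2 were higher, *Hspa1b* (41.7 and 149 CPM, with over 62% of its UMIs in 10 cells in each library) and *Hspb1* (141 and 340 CPM). Of 14 integrins and matrix receptors that entered, 3 were lower, the syndecans *Sdc4* (289 and 93.0 CPM) and *Sdc1* (85.2 and 35.6 CPM) and the integrin *Itgb5* (ratio 0.489). *Cfb*, complement factor B, was the 1 lower member of 9 stromal complement genes that entered, at 77.3 and 20.2 CPM. Among 14 glycolysis genes, the lactate exporter *Slc16a3* was the only member past 2-fold (26.9 and 5.77 CPM), and none of 9 hypoxia-responsive genes was. The most abundant of these, *Mif* and *Ndrg1*, had ratios of 1.15 and 1.11.

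Outside the groups, *Tac1* (chr6:7554879-7565835), the gene of substance P and a neuropeptide gene not typical of FAPs, was at 4.65 CPM in control against 136 CPM in hypothyroid FAPs, a ratio of 29.3 (19.4 to 46.3). *Tac1* was found in 9 of the control and 106 of the hypothyroid FAPs. On the other days it was at 32.4 and 41.7 CPM (uninjured) and 34.8 and 35.6 CPM (14 dpi), so the control library at 5 dpi had the lowest level and the hypothyroid library at 5 dpi the highest. The histone gene *H2ac24* had a similar ratio of 30.4 (7.08 and 215 CPM). *Gstp1* followed with 25.1, the ubiquitin-conjugating enzyme gene *Ube2s* with 24.7, and the predicted gene *Gm45570* with 17.5. Of the genes with the lowest ratios, *Chl1*, a neural cell adhesion molecule, was at 136 and 19.1 CPM, a ratio of 0.141 (0.120 to 0.165). *Arg1* (arginase), a gene of repair macrophages, was at 29.5 and 3.36 CPM, with 89.7% of its control UMIs in 10 cells. *Hbb-bs*, a hemoglobin chain, had the lowest ratio of all, 0.0117 from 365 and 9 UMIs, *Pvalb* one of 0.0469, and *Rps27rt*, a retrotransposed ribosomal gene, one of 0.123.

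*Lyz2*-positive cells also carried more chemokine mRNA in the hypothyroid library. Of 16 macrophage chemokines listed, 12 entered, with 8 at least 2-fold higher, 1 lower, and 3 between, beside 5.82% higher and 9.14% lower over all genes. Their median ratio was 2.68 against 0.846 over all genes, and their sum was 5407 CPM in control against 15738 CPM in hypothyroid cells, giving a ratio of 2.91 (2.86 to 2.96). *Ccl2* was at 1196 CPM (1156 to 1238) and 6285 CPM (6236 to 6334), a ratio of 5.25 (5.07 to 5.44). In the control library 10 cells held 76.1% of its UMIs, and in the hypothyroid library 26.8%. *Ccl4*, an attractant of monocytes and T cells, was at 755 and 3550 CPM, a ratio of 4.70 (4.50 to 4.92). *Cxcl9*, induced by interferon-γ, was at 19.6 and 82.4 CPM, and *Ccl5*, which attracts T cells as well, at 298 and 872 CPM. The exception was *Ccl6*, at 221 and 103 CPM, a ratio of 0.465 (0.420 to 0.515). FAP markers were at 8786 and 9627 CPM in this gate, and the part of FAP RNA in *Ccl2*, *Ccl7*, and *Ccl8* was not tested.

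Some marker genes of recruited monocytes were lower, though the group as a whole was not. Of 20 monocyte and inflammatory genes, 16 entered, 6 were at least 2-fold lower, 1 was higher, and 9 lay between, beside 9.14% lower over all genes, with a median ratio of 0.849, beside 0.846 over all genes. *Ly6c2* (chr15:74980007-74983820), the surface marker of inflammatory monocytes, was at 128 CPM (115 to 143) and 10.9 CPM (8.95 to 13.1), a ratio of 0.0848 (0.0679 to 0.105). *Ccr2* (chr9:123901987-123913595), the receptor through which CCL2 draws monocytes from blood, was at 119 and 22.5 CPM, a ratio of 0.188 (0.158 to 0.223). *Plac8*, another gene of this stage, was at 665 and 131 CPM, a ratio of 0.197 (0.184 to 0.212). *Chil3*, a chitinase-like gene, had a ratio of 0.118.

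Cytokines of the same group went both ways. *Il1b* was at 1466 and 587 CPM, a ratio of 0.40 (0.385 to 0.417), and *Il1a* at 10.4 and 24.8 CPM, a ratio of 2.40 (1.62 to 3.68), from 28 and 253 UMIs. *Tnf* was at 34.8 and 55.6 CPM and *Ptgs2*, which encodes cyclooxygenase 2, at 596 and 871 CPM, neither past 2-fold. At 14 dpi *Il1b* was at 211 and 562 CPM, a ratio of 2.66.

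Of 18 complement C1q and resident macrophage genes listed, which mature macrophages express, 11 entered, with 4 higher, 1 lower, and 6 between, beside 5.82% higher over all genes, and the median ratio was 1.49. *C1qb* (chr4:136607440-136613499) was at 680 CPM (650 to 712) and 1911 CPM (1884 to 1938), a ratio of 2.81 (2.68 to 2.95), while *C1qa* and *C1qc* were just under 2-fold at 742 and 1420 CPM and at 590 and 942 CPM. *Pf4*, a chemokine of tissue macrophages, was at 347 and 865 CPM, a ratio of 2.49 (2.33 to 2.67). *Folr2* and *Selenop*, also genes of resident macrophages, had ratios of 2.61 and 2.31. Not all followed. *Maf*, a transcription factor of macrophage maturation, was at 67.3 and 29.4 CPM, a ratio of 0.437 (0.362 to 0.528), and *Mrc1* (CD206) was at 39.9 and 45.7 CPM.

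Counted by cell after thinning, 21.9% of control (17.6 to 26.7) and 55.4% of hypothyroid *Lyz2*-positive cells (51.9 to 58.7) had UMIs of at least 2 of the 3 C1q genes. The T cell gate, which should lack them, had 0% and 1.27% by the same thinned count, and 0 of 222 control cells allow a share of up to 1.35%. Without thinning the shares in the *Lyz2* gate were 28.0% and 59.4%, at median depths of 5539 and 8232 UMIs, where the T cell gate had medians of 2638 and 3248.5 UMIs. The control share depended on the gate. Thinned, and with at least 10 UMIs of *Lyz2* required, it was 46.8% (38.4 to 55.4). The hypothyroid share under that gate is not reported here. Conversely, 29.6% of control (24.8 to 34.8) and 6.12% of hypothyroid cells (4.61 to 7.95) had a UMI of *Ccr2* or *Ly6c2*, beside 2.35% and 0.508% in gated FAPs, 51.8% and 50.6% in the T cell gate, and 32.0% and 8.64% of all cells. Control *Lyz2*-positive cells thus had a lower share than the T cell gate. Few cells of the *Lyz2* gate had both, 3.25% and 1.77%.

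Lipid-handling and repair genes of macrophages were higher in part. Of 23 listed, 22 entered, with 5 higher, 1 lower, and 16 between, beside 5.82% higher over all genes, and their median ratio was 1.29 against 0.846. *Apoe* was at 3434 CPM (3365 to 3505) and 10807 CPM (10743 to 10871), a ratio of 3.15 (3.08 to 3.21). *Mmp12*, the macrophage elastase, was at 68.4 and 200 CPM, with over 72% of its UMIs in 10 cells in each library. *Trem2* was at 316 and 716 CPM, a ratio of 2.27 (2.11 to 2.44), and *Lgals1* and *Anxa1* had ratios of 2.39 and 2.20. *Spp1* (osteopontin) was an abundant exception at 5330 and 3752 CPM, a ratio of 0.704, with 69.4% of its control UMIs in 10 cells. *Lipa*, lysosomal acid lipase, was at 453 and 217 CPM, a ratio of 0.480 (0.447 to 0.515). All 18 lysosome genes entered and had a median ratio of 1.14. Only *Ctsk* (cathepsin K, 60.3 and 151 CPM) and *Atp6v0d2*, a proton pump subunit (45.8 and 94.7 CPM), were past 2-fold among them.

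Several antigen presentation genes were lower. Of 21 MHC class II and dendritic cell genes, 10 entered, 5 of them at least 2-fold lower and none higher, beside 9.14% lower over all genes, and 11 were under the minimum. Past 2-fold relative to the median gene were 2. Their median ratio was 0.466 and their sum was 15020 CPM in control against 8628 CPM in hypothyroid cells, giving a ratio of 0.574 (0.568 to 0.581). *H2-Aa*, a class II chain, was at 3326 and 1239 CPM, a ratio of 0.373 (0.363 to 0.383), and *Irf8*, a transcription factor of dendritic cells, at 255 and 57.6 CPM, a ratio of 0.225 (0.201 to 0.252). *Cd74*, the invariant chain, was at 4356 and 2334 CPM, a ratio of 0.536. Thinned, 56.5% of control and 39.0% of hypothyroid *Lyz2*-positive cells had at least 2 of 4 class II genes. With at least 10 UMIs of *Lyz2* required, the shares were 48.2% and 46.9%. Dendritic cell markers together were at 81.7 and 20.9 CPM in the gate.

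**Figure D5:**
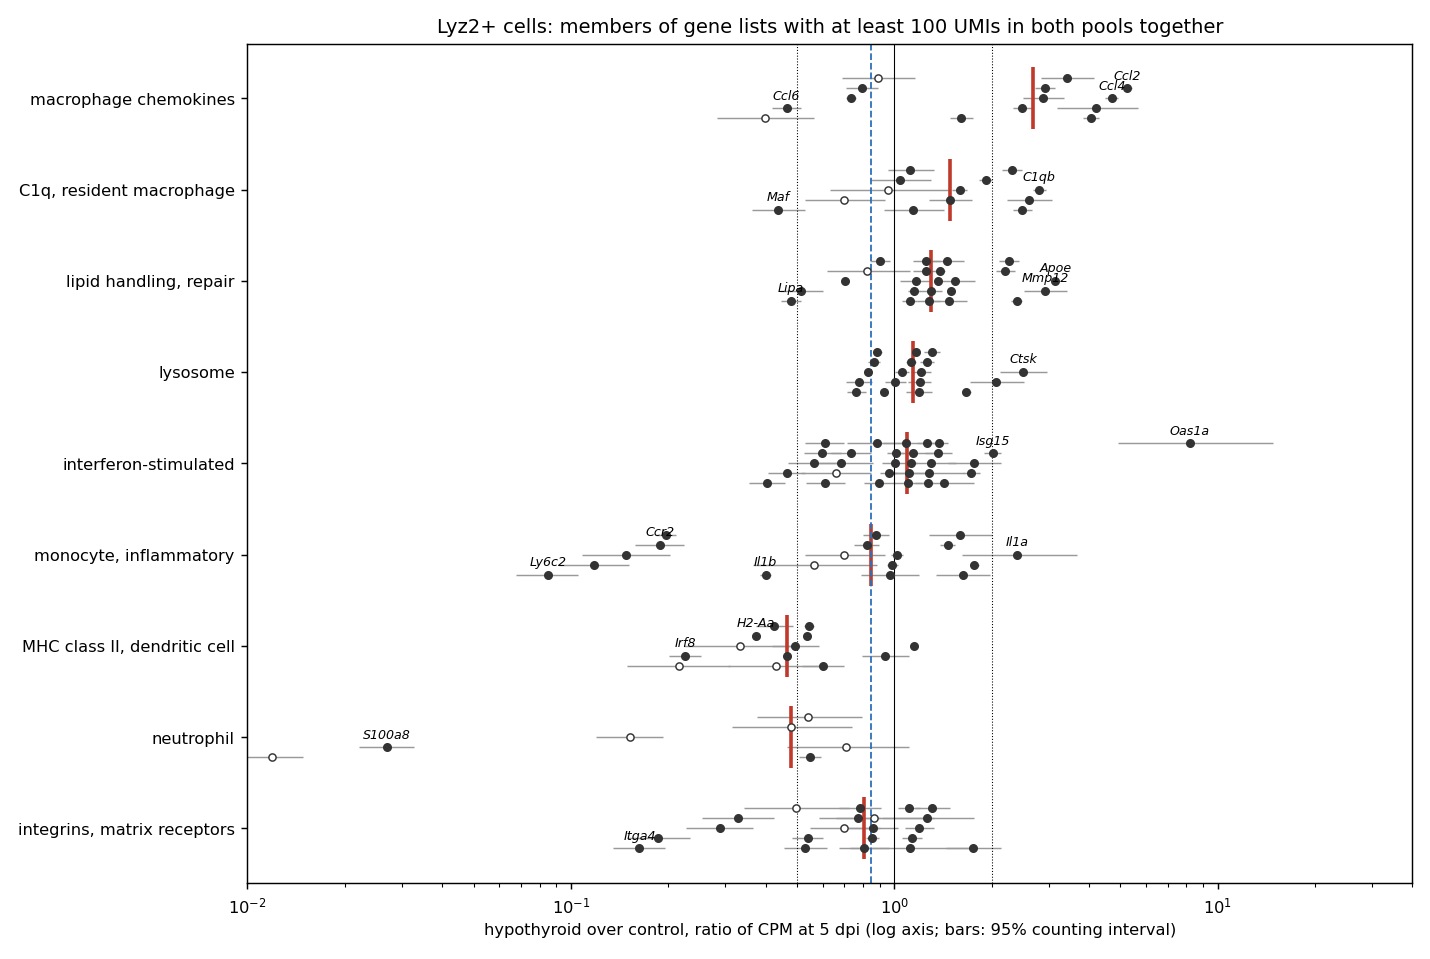
Ratio of hypothyroid over control level (log axis) at 5 dpi for each member with at least 100 UMIs in both libraries together of the gene groups in *Lyz2*-positive cells. Filled points entered, open points were under the minimum, the red bar is the median of the group, the blue dashed line is the median over all genes (0.846), and dotted lines mark 2-fold; the macrophage chemokines have a median of 2.68 and the class II and dendritic genes one of 0.466.

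Few neutrophil genes could be compared. Of 14 listed, 7 were in the files and 2 entered. *S100a8*, a calcium-binding protein of neutrophils, was at 410 and 11.1 CPM, a ratio of 0.0270 (0.0220 to 0.0328), and 10 control cells held 98.1% of its UMIs. Neutrophil markers together were at 1101 CPM in control against 28.1 CPM in hypothyroid *Lyz2*-positive cells.

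Interferon-stimulated genes of *Lyz2*-positive cells did not share a direction, with 2 higher and 2 lower of 29 that entered and a median ratio of 1.09. Over all genes 5.82% were higher and 9.14% lower. *Oas1a* was at 5.55 CPM (15 UMIs) and 45.5 CPM (464 UMIs), a ratio of 8.20 (4.92 to 14.8), and *Isg15*, a ubiquitin-like modifier, at 437 and 880 CPM. The peptide transporter *Tap1* was a lower member (ratio 0.465). Thyroid axis genes were sparse here, with 9 of 25 entering. The transporter *Slc16a10* was the only member past 2-fold, at 45.1 and 22.5 CPM, a ratio of 0.498 (0.398 to 0.625), an interval that crosses 0.5. *Klf9* was at 177 and 104 CPM, a ratio of 0.587, and *Thra* at 17.4 and 24.7 CPM.

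Replication genes were mostly under the minimum in *Lyz2*-positive cells (21 of 32), and of 11 that entered *Stmn1* was higher (95.4 and 194 CPM) and none lower. The thinned share of cells with at least 3 of them was 12.1% in control and 12.7% in hypothyroid cells, with overlapping intervals (8.85 to 16.1 and 10.6 to 15.2). As in FAPs, *Cdkn1c* was higher (38.1 and 137 CPM, ratio 3.59) and *Ccnd2* lower (227 and 57.7 CPM, ratio 0.254). *Cdkn2a* was the other higher member of that group, on 14 and 107 UMIs. Of 18 integrins and matrix receptors that entered, 4 were lower, beside 9.14% lower over all genes. *Itga4* and *Itgb7*, the chains of a homing receptor of leukocytes, were at 113 and 18.4 CPM and at 72.1 and 13.4 CPM, with ratios of 0.163 (0.135 to 0.196) and 0.186 (0.149 to 0.233).

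Metabolic and stress genes of *Lyz2*-positive cells held some members past 2-fold, beside 5.82% higher and 9.14% lower over all genes. Of 15 glycolysis genes that entered, *Eno1* (enolase) was higher at 71.4 and 189 CPM, and *Slc16a3* and *Pfkp* were lower at 44.7 and 8.73 CPM and at 159 and 55.0 CPM. None of 8 hypoxia-responsive genes was past 2-fold. Of 22 immediate early genes *Myc* was higher (59.9 and 134 CPM) and *Btg2* lower (199 and 80.6 CPM), and of 19 heat shock genes that entered *Hspb1* was higher (75.1 and 222 CPM). Among all genes *Gclc*, the catalytic subunit of glutathione synthesis, had one of the lowest ratios, at 481 and 57.4 CPM, a ratio of 0.119 (0.108 to 0.132). *Gpr141*, an orphan receptor, was at 77.3 and 4.61 CPM. *Pvalb*, *Wdr89*, and *Rps27rt* had ratios of 0.0397, 0.0941, and 0.11, close to those in FAPs. *Eomes*, a factor of cytotoxic lymphocytes, was at 44.7 and 4.41 CPM, with 76.0% of its control UMIs in 10 cells. At the other end *H2ac24* had a ratio of 36.6 (20.9 to 70.9), *Gstp1* one of 35.8, and *Ube2s* one of 23.0. *Antkmt* and *Gm42047* were nearly absent from control cells, with 3 and 4 UMIs against 238 and 260.

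T cells were compared on 992945 control and 429901 hypothyroid UMIs, so fewer members of each group entered. Of 20 CD4 and regulatory T cell genes 8 entered, with 4 lower and none higher, and a median ratio of 0.520 against 0.802 over all genes, beside 15.4% lower in the whole comparison. *Il2rb*, the β chain of the IL-2 receptor, was at 740 CPM (688 to 796) and 237 CPM (193 to 288), a ratio of 0.321 (0.258 to 0.395). *Ikzf2* (Helios), a factor of regulatory T cells, was at 850 and 274 CPM, a ratio of 0.323 (0.264 to 0.392). The costimulator *Icos* was at 199 and 93.0 CPM and *Ccr2* had a ratio of 0.446.

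Of 17 γδ and type 17 genes, 9 were in the files and 2 entered, both lower, beside 15.4% lower over all genes. *Trdc*, the constant region of the δ chain, was at 256 and 97.7 CPM, in 58 control and 6 hypothyroid cells, and the chemokine receptor *Cxcr6* at 277 and 109 CPM. Of 11 naive and memory genes 7 entered. *Ccr7*, the lymph node homing receptor, was the only member past 2-fold, at 319 and 58.2 CPM, a ratio of 0.182 (0.116 to 0.274), and 10 cells held 71.9% of its control UMIs. *Il7r* and *Tcf7*, both genes of long-lived T cells, had ratios of 1.02 (0.879 to 1.18) and 0.913 (0.760 to 1.09), intervals that include 1.

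Cytotoxic genes had a median ratio of 1.59, over the 14 members with at least 100 UMIs in both libraries together. Of 22 listed 6 entered, with 1 higher, 1 lower, and 4 between, beside 3.16% higher and 15.4% lower over all genes. Another 15 were under the minimum, among them *Cd8a* and *Gzmb*. Relative to the median gene none was past 2-fold higher and 1 was past 2-fold lower. *Ccl5* was at 1288 and 2619 CPM, a ratio of 2.03 (1.88 to 2.20), and *Nkg7*, a granule protein, at 128 and 240 CPM, a ratio of 1.87 (1.43 to 2.45). *Eomes* was lower, at 108 and 51.2 CPM from 107 and 22 UMIs. Relative to the median gene of T cells, 1.13, the ratio of *Ccl5* was 1.79.

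Of 18 activation genes 8 entered, with 3 lower, beside 15.4% lower over all genes. *Nr4a3*, an early target of T cell receptor signaling, was at 119 and 16.3 CPM, *Cxcr4* at 474 and 195 CPM, and the adhesion receptor *Cd44* at 507 and 226 CPM. *Cd69*, another early activation marker, was at 678 and 630 CPM. Of 21 interferon-stimulated genes that entered, 6 were at least 2-fold higher and none lower, beside 3.16% higher over all genes, with a median ratio of 1.39. *Isg15* was at 358 and 951 CPM, a ratio of 2.66 (2.30 to 3.08), and *Psmb8*, an immunoproteasome subunit, at 226 and 568 CPM, a ratio of 2.52 (2.09 to 3.03). Past 2-fold relative to the median gene were 3 members. Of 6 integrins and matrix receptors that entered 3 were lower (*Itga4*, *Itgb7*, and *Cd44*), and of 11 immediate early genes 3 were lower, among them *Dusp1* (175 and 48.8 CPM) and *Ier5* (273 and 119 CPM). *Itgb7* had a ratio of 0.418, close to that of *Itga4*, 0.463. None of the 3 thyroid axis genes, 5 replication genes, 3 cyclin D or CDK inhibitor genes, or 10 heat shock genes that entered was past 2-fold, and neither was *Mif*, the 1 hypoxia gene that entered. *Pfkp* was the 1 lower member of 6 glycolysis genes, with a ratio of 0.492.

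Several of the most extreme ratios in the T cell gate belonged to genes typical of other cell types. *Ccl2* was at 128 and 2131 CPM, a ratio of 16.7 (13.8 to 20.2), and *Cxcl1* at 56.4 and 833 CPM, but 10 cells held 95.9% and 94.7% of their hypothyroid UMIs. *Ctsb*, a cathepsin abundant in macrophages, was at 122 and 663 CPM, with 94.0% of its hypothyroid UMIs in 10 cells, and its ratio was 0.906 when all 3 Cd3 genes were required. At the other end stood genes of muscle fibres. *Pvalb*, which buffers calcium in fast fibres, had 182 UMIs in control and 0 in hypothyroid T cells, which set against 3 UMIs is at least a 26.3-fold lower level. *Acta1*, skeletal muscle actin, was at 585 and 48.8 CPM, and *Mylpf*, a fast myosin light chain, at 426 and 62.8 CPM. *Tnnc2*, a fast troponin, was at 288 and 44.2 CPM, and *Myl1* had a ratio of 0.11. *Lars2*, a mitochondrial leucyl-tRNA synthetase, was at 1085 and 161 CPM, a ratio of 0.148 (0.114 to 0.189).

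Genes past 2-fold in the same direction in FAPs, *Lyz2*-positive cells, and T cells were few. Of 1442 genes that entered in all 3, 23 (1.6%) were higher and 30 (2.08%) lower in every population. The highest were genes that separated the libraries. *Gm10076* had ratios of 18.0, 18.7, and 13.9, and *mt-Nd4l*, a subunit of complex I, ratios of 12.4, 16.3, and 18.3. *Rpl35* and *Erh* followed with 4.33 to 6.28. The others were mostly ribosomal protein genes, and *Ccl2*, *Cxcl1*, and *Ccl5* were among them. *Tbc1d4*, which controls glucose transporter traffic, was lower at ratios of 0.280, 0.195, and 0.307. The other lower genes included the fibre genes *Pvalb*, *Acta1*, *Myl1*, *Tnnt3*, and *Mylpf*, and *Wdr89*, with ratios of 0.0859, 0.0941, and 0.112.

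Mitochondrially encoded and nuclear genes of the respiratory chain had median ratios on opposite sides of 1, but members of the mitochondrial group went both ways. Of 13 mitochondrially encoded genes, 6 in FAPs, 5 in *Lyz2*-positive cells, and 7 in T cells were at least 2-fold lower, and 1, 2, and 1 were higher. Over all genes 6.56%, 9.14%, and 15.4% were lower. The median ratios of the group were 0.592, 0.674, and 0.391. *mt-Nd1* was at 2619 and 707 CPM in FAPs, 2682 and 836 CPM in *Lyz2*-positive cells, and 4235 and 1077 CPM in T cells. *mt-Co3* had ratios of 0.324, 0.374, and 0.284. Neighbouring genes of the same genome differed from it, since *mt-Nd4l* was over 12-fold higher in all 3, and *mt-Co1* had ratios of 1.11, 1.31, and 0.905. *mt-Nd4* was lower, with ratios of 0.386, 0.461, and 0.385, opposite to *mt-Nd4l*. How reads were assigned among these genes was not tested. Few nuclear genes of oxidative phosphorylation were past 2-fold. Of 51 in the files, 51, 50, and 29 entered, with 1, 2, and 2 at least 2-fold higher and none lower, beside 2.79%, 5.82%, and 3.16% higher over all genes. Their median ratios were 1.30, 1.35, and 1.38. In T cells none was higher and 1 lower relative to the median gene. *Atp5e*, a subunit of ATP synthase, was at 225 and 499 CPM in FAPs, and *Cox7c*, a subunit of cytochrome oxidase, at 291 and 628 CPM in *Lyz2*-positive cells.

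Some cytosolic ribosomal protein genes were higher in each population, with 12 of 79, 12 of 79, and 15 of 76 that entered at least 2-fold higher and 2, 2, and 1 lower, beside 2.79%, 5.82%, and 3.16% higher over all genes. Their median ratios were 1.43, 1.40, and 1.58. *Rpl39* was at 951 and 3329 CPM in FAPs, a ratio of 3.50 (3.40 to 3.61), and *Rpl24* at 1147 and 450 CPM, a ratio of 0.392 (0.377 to 0.408). At 14 dpi the ratios in FAPs were 1.21 for *Rpl39* and 1.31 for *Rpl24*. Many ribosomal protein genes have processed copies with which reads may be shared, and the part of this in these ratios was not tested.

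Over all cells, a different makeup of the libraries and different levels within cells cannot be told apart. The hemoglobin genes were the lowest, although red blood cells had been removed from both pools. *Hbb-bs* was at 121 CPM in control against 0.894 CPM in hypothyroid cells, giving a ratio of 0.00739 (0.00456 to 0.0113), and *Hba-a1* had 843 and 3 UMIs. The 10 highest control cells held 93.4% of the UMIs of *Hbb-bs*. In uninjured muscle its ratio was 11.8 (180 and 2121 CPM), and at 14 dpi it was 0.0582 (2254 and 131 CPM), so the order of the diets differed between days. *Saa3* and the neutrophil gene *S100a9* were at 214 and 5.58 CPM and at 141 and 3.70 CPM. *Myh11*, the smooth muscle myosin of vessel walls, was at 18.6 and 0.638 CPM, and *Myh1*, a fast fibre myosin, at 7.97 and 0.213 CPM. *Ifnb1*, the interferon-β gene, was among the highest, at 1.23 CPM in 5 control cells and 27.9 CPM in 88 hypothyroid cells, with a ratio of 22.7 (14.4 to 37.9). *Tac1* had a ratio of 30.1, *Gstp1* one of 44.7, *H2ac24* one of 27.9, *Ube2s* one of 18.9, and *Gstp2*, the close copy of *Gstp1*, one of 29.7 from 8 and 362 UMIs.

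Over all cells many macrophage genes were higher and many lymphocyte genes lower, in the direction of the shares of the *Lyz2* and T cell gates. Of 14 C1q and resident macrophage genes that entered, 9 were at least 2-fold higher and 1 lower, beside 3.36% and 18.6% of all genes, and their median ratio was 3.48. *C1qb* was at 120 CPM in control against 837 CPM in hypothyroid muscle, and *Pf4* at 61.9 and 380 CPM. Of 14 macrophage chemokines 8 were higher and 1 lower. *Ccl4* was at 161 and 1629 CPM, a ratio of 10.1, and *Ccl22*, a ligand made by dendritic cells, was the lower member at 44.8 and 8.21 CPM. Of 23 lipid-handling and repair genes 11 were higher and 1 lower, and of 18 lysosome genes 8 were higher and none lower. *Mmp12* was at 12.4 and 89.6 CPM and *Ctsl* (cathepsin L) at 564 and 1402 CPM. The lower member was *Fabp4*, an adipocyte and endothelial gene, at 601 and 234 CPM. Monocyte genes went both ways, with 5 higher and 6 lower of 18. *Cxcl3*, a neutrophil attractant, was at 375 and 1171 CPM, and *Ccr2* at 196 and 28.7 CPM.

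Among lymphocyte genes, 9 of 11 naive and memory genes, 12 of 15 CD4 and regulatory genes, 16 of 20 cytotoxic genes, 3 of 4 γδ and type 17 genes, and 8 of 16 activation genes that entered were at least 2-fold lower. Over all genes 18.6% were lower and 3.36% higher. The summed level of the cytotoxic group ran the other way, at 1831 CPM in control against 2582 CPM in hypothyroid cells, a ratio of 1.41, of which *Ccl4*, a gene that macrophages express as well, took 161 and 1629 CPM. *Il2rb* was at 391 CPM in control against 37.7 CPM in hypothyroid muscle, and *Eomes* at 132 and 13.2 CPM. *Lef1*, a factor of naive T cells, was at 30.3 and 4.38 CPM, and *Prf1* (perforin) at 43.2 and 7.45 CPM. Few members of these groups were higher. *Il10*, an anti-inflammatory cytokine gene that macrophages also express, was at 2.01 and 19.1 CPM, in 14 control and 109 hypothyroid cells, and 87.1% of its control UMIs lay in 10 cells. *Areg* (amphiregulin), a growth factor gene, was at 12.3 and 30.9 CPM. Of 16 class II and dendritic genes 8 were lower and none higher, among them *Irf8* (456 and 65.6 CPM) and *Siglech*, a marker of plasmacytoid dendritic cells (15.9 and 3.23 CPM). Markers of natural killer cells together were at 230 and 30.1 CPM.

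The matrix group lay on the other side of 1 when all cells were taken. The summed collagen and matrix level was 31371 CPM in control against 35289 CPM in hypothyroid muscle as a whole, a ratio of 1.12, while it was 0.765 within FAPs. None of the 29 genes was past 2-fold, and *Col1a1* and *Col3a1* had ratios of 0.913 and 0.948. Of 21 stromal chemokines 7 were higher and 2 lower, beside 3.36% higher and 18.6% lower over all genes. *Ccl2* was at 1697 and 8834 CPM, *Ccl7* at 697 and 2610 CPM, and *Cxcl13*, a B cell attractant, on the lower side at 50.9 and 9.11 CPM. *Plau* had a ratio of 4.85 and *Igfbp7* one of 2.07, both past 2-fold as in FAPs. *Fst* (follistatin) and *Bmp5* were higher members of the BMP group at 70.0 and 159.5 CPM and at 11.5 and 28.8 CPM, and *Tgfb1* was the lower member at 187 and 84.4 CPM.

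Of 32 replication genes over all cells, 12 were at least 2-fold lower, none was higher, and 20 lay between, beside 18.6% lower over all genes, and their median ratio was 0.60 against 0.75. The share of cells with at least 3 of them was 20.5% in control and 15.3% in hypothyroid cells after thinning but 40.6% and 45.1% without it, so its direction turned with the thinning. *Mcm2*, a subunit of the replicative helicase, was at 33.4 and 9.92 CPM. Only 3 of them were past 2-fold relative to the median gene. Of 17 thyroid axis genes that entered 2 were lower, *Dio3* at 18.1 and 2.64 CPM and *Ncor1* at 254 and 122 CPM. The CDK inhibitor gene *Cdkn2a* was at 5.96 and 19.9 CPM and *Ccnd2* at 270 and 78.5 CPM.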

How the data were processed

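Cells of injured TAM were captured with 10x Genomics V3 3′ chemistry. Per the labels and the methods of the study, reads were aligned with Cell Ranger to mm39 and GENCODE M30 and processed in Partek Flow v11.0. The deposited values are log2(CPM + 1) per cell, as the authors normalized them. The stated removal of cells under 100 or over 8000 UMIs did not match the files, whose cells ran from 479 to 49806 UMIs. Whole UMIs were recovered from the size of 1 UMI in each cell, and 99.9341% of 39334018 values were whole within the larger of 0.1 UMI and 0.5% of the value. The other 25939 values belonged to 7 genes, which included *Aldoa* and *Atp5o*, and were rounded.

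Files of 5 dpi held later runs of columns, which began where barcodes left alphabetical order, and only the first run was used. The values at 5 dpi used no column from the file of another sample (0 columns). The all-columns alternative added the later runs of the 5 dpi files, which had the library-wide gene levels of other libraries. No doublets were removed, and cells in more than 1 gate were left out as an alternative. The UMIs of all cells in a gate were added up, so each group gave 1 value, with no replicates and no test. Counts refer to genes at least 2-fold apart. A count of 0 was set against 3 UMIs.

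In each of the 4 comparisons the genes named are the 8 highest and 8 lowest genes by the end of the ratio's interval nearest 1, gate genes left out. Of each of 36 gene lists they are up to 2 members past 2-fold each way with the interval end farthest from 1, or the 2 most abundant where none was past 2-fold, and of the genes shared by all 3 gates 5 each way. Some genes that the rule names are not reported here. Other genes named were chosen after their values were seen. The cell populations and the lists were chosen with earlier results of these data known. Alternatives were median-gene scaling, cells thinned to 1500 UMIs, means over cells, other minimum counts (20 and 300 UMIs), stricter gates (2 UMIs of *Pdgfra* and 5 of *Dcn*, 10 of *Lyz2*, all 3 Cd3 genes), cells in 1 gate only, and all columns. Gates that other markers supported, those markers alone, a minimum of 100 UMIs in both libraries together, and leaving out genes shared by all 3 gates were added after the data were seen. Gene positions came from the mm39 GENCODE annotation. Python 3.11.15, numpy 2.4.6, scipy 1.17.1, pandas 2.3.3, and matplotlib 3.10.9 were used, and the scripts were tested on simulated data.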

Additional observations from a re-analysis of the deposited data

Results flagged for a closer look

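For 5 of the genes named, the ratio was past 2-fold in one direction at 5 dpi and past 2-fold in the other on another day. With 1 library per diet and day the difference between days was not tested. In FAPs *Mmp3* had a ratio of 0.231 at 5 dpi and 3.28 at 14 dpi, *Hspa1b* one of 3.58 at 5 dpi and 0.286 at 14 dpi, and *Cxcl10* one of 2.61 at 5 dpi and 0.398 in uninjured muscle. In *Lyz2*-positive cells *Il1b* had a ratio of 0.40 at 5 dpi and 2.66 at 14 dpi. Over all cells *Hbb-bs* had a ratio of 0.00739 at 5 dpi and 11.8 in uninjured muscle.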

How the results depend on the processing

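No paired analysis was possible because each group was 1 library and no result came from a test. Of 173 results for named genes past 2-fold, 154 remained so under median-gene scaling, 159 with cells thinned, 160 as means over cells, and 99 with all columns kept; of 157 in the gates, 147 remained with cells of more than 1 gate left out, 140 with stricter gates, and 144 with marker-supported gates. Directions turned for *Fabp4* (0.262), *Cdkn1c* (0.992), and *Mki67* (1.09) in FAPs with all columns, and in T cells for *Ctsb* with the stricter gate (0.906) and *Pfkp* when thinned (1.03). The cause was not tested. Values with all columns include the later runs, which had the library-wide gene levels of other libraries, so each side may mix conditions.

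Genes at least 2-fold higher and lower under median-gene scaling numbered 371 and 153 in FAPs, 628 and 258 in *Lyz2*-positive cells, 33 and 398 in T cells, and 921 and 814 over all cells. With all columns the lower genes were 246 in FAPs, and the higher and lower were 172 and 315 in *Lyz2*-positive cells, 33 and 13 in T cells, and 206 and 593 over all cells. At least 20 UMIs gave 419 and 1011, 647 and 1256, and 245 and 1200 in the 3 gates. At least 300 UMIs gave 159 lower in FAPs, 199 and 187 in *Lyz2*-positive cells, 26 and 56 in T cells, and 1161 lower over all cells. Higher genes were 601 in *Lyz2*-positive cells and 654 over all cells when thinned, and 607 (with 479 lower) and 765 as means over cells. The stricter *Lyz2* gate gave 289 and 137, and the stricter T cell gate 95 lower. Of the alternatives added after the data were seen, marker support gave 205 and 291 in *Lyz2*-positive cells, 100 UMIs in both libraries together gave 664 lower in FAPs, 878 lower in *Lyz2*-positive cells, and 112 higher in T cells, and leaving out genes shared by all gates gave 28 higher in T cells.

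The hypothyroid share over the control share was 2.26 for FAPs, against 1.87 thinned, 1.89 with cells of more than 1 gate left out, 2.13 with the stricter gate, and 1.04 with all columns. For *Lyz2* it was 2.81, against 2.83, 2.59, 3.86, and 2.17, and 2.87 with marker support. For T cells it was 0.385, against 0.480 thinned, 0.563 with the stricter gate, 0.996 with all columns, and 0.468 with marker support. By the other markers alone, without the gate, the ratios were 2.13, 1.56, and 0.373. Depth limits the T cell gate most, where 1613 genes entered against 6629 in FAPs.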

Other observations

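The later runs of columns in the files of 5 dpi, which the comparisons leave out, had the levels of the library-wide genes of other libraries. In the control file the second run of 2427 columns had *Gstp1* at 18.4 CPM, *Wdr89* at 59.1 CPM, and *Hbb-bs* at 1731 CPM, beside 20.2, 53.0, and 2254 CPM in the first run of the control file of 14 dpi. In the hypothyroid file the second run of 528 columns had *Gstp1* at 212 CPM and *Wdr89* at 6.89 CPM, and the third run of 1626 columns had them at 4.76 and 156 CPM, beside 4.79 and 158 CPM in the control cells of 5 dpi. These runs carry no label of their own and were assigned to no group. In each file of uninjured muscle, the second run shared all its barcodes with the first run of another library. For hypothyroid muscle these were 528 barcodes of control at 5 dpi, and for control muscle 1152 barcodes of hypothyroid at 14 dpi. The later runs of the 5 dpi files shared at most 4 barcodes with any first run.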
